A study of Homo sapiens with 12 samples.

Results

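The forkhead (FOX) genes encode transcription factors that share a winged-helix DNA-binding domain, and 39 of the 18417 genes measured here belong to the family. A gene was counted as a member when its symbol was FOX followed by a letter from A to S and a digit, and each of the 39 was represented by its own array transcript cluster annotated with that gene alone. Another 8 clusters carry several forkhead genes and were not named, and the antisense transcript FOXN3-AS2 was not counted. RNA from NCCIT cells, a human embryonal carcinoma line with pluripotent properties, was hybridized to Affymetrix Human Gene ST arrays after transfection with siRNA. The 12 arrays comprise 2 each of siWDR5, siEED, siRNF2, the dual knockdown siEED+RNF2, siSETD2, and siNTC, a control siRNA without a target, whose arrays the submitters mark as re-analysed. According to the paper's methods, the dual transfection used both siRNA pools and more transfection reagent than a single one. The labels name no control matched to it, so in siEED+RNF2 the dual knockdown cannot be told apart from that larger dose. WDR5 is a subunit of the MLL/COMPASS complexes that write H3K4me3, EED is a subunit of PRC2 (H3K27me3), RNF2 is the PRC1 ligase that writes H2AK119ub, and SETD2 writes H3K36me3. All groups come from the same unmodified cell line, each siRNA knockdown is transient, and the sources used here do not say whether the 2 arrays of a group came from separate cultures, so the p-values rest on the spread between arrays of a group, pooled by limma over the 6 conditions and moderated over all genes, and that spread may be technical.

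Forkhead factors bind a short AT-rich DNA element, and their family spans very different tasks. Some open compacted chromatin during germ layer formation (FOXA), some answer to insulin and growth factor signalling through AKT (FOXO), some drive the division phase of the cell cycle (FOXM1), and some act with SMAD proteins in NODAL signalling (FOXH1). FOXR2 is normally expressed in few tissues, the testis among them, is activated in certain tumours, and binds MYC. Many developmental forkhead genes are held silent in pluripotent cells, where their promoters often carry H3K27me3 together with H3K4me3.

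Of the 39 members, 5 changed past the threshold in at least 1 knockdown and 34 in none. The share of all genes called in at least 1 knockdown is not given here, so this count is not read as a result about the family. A gene was called when limma gave a Benjamini-Hochberg adjusted p under 0.05 over all 18417 genes and a fold change of at least 1.5 between group means. FOXR2 rose with all but siSETD2, FOXB2 fell in siEED, siRNF2, siEED+RNF2 and siSETD2, FOXO4 fell in siRNF2, and in siEED+RNF2 FOXK1 rose and FOXN2 fell. In siWDR5, 1 member was called higher and 0 lower, against 2.8% of all genes called higher and 3.22% lower. In siEED 1 member was higher and 1 lower, with 3.74% of all genes higher and 2.63% lower. In siRNF2 1 member was higher and 2 were lower, with 6.37% of all genes higher and 3.81% lower. In siEED+RNF2 2 members were higher and 2 lower, with 5.49% of all genes higher and 6.02% lower. In siSETD2 0 members were higher and 1 was lower, with 2.64% of all genes higher and 3.18% lower. In bulk RNA such a change cannot be told apart from a change in the share of cells that express the gene. All 5 knockdowns are compared with the same 2 siNTC arrays, so their values are not independent. A siNTC offset cannot be told apart from a change common to all of them. Counts of 0 to 2 among 39 members lie near these background shares, and what follows concerns single members. Where limma called 0, an unadjusted p under 0.05 was reached by 5 members lower in siWDR5 and by 5 higher in siSETD2. Over all genes, 18.6% were lower in siWDR5 and 15.8% higher in siSETD2 even at an adjusted p under 0.05 at any fold. These counts are therefore not read as forkhead changes. The median log2 fold change of the 39 members lay between -0.02 in siWDR5 and 0.06 in siEED+RNF2, and that of all genes between -0.04 in siRNF2 and -0.01 in siSETD2.

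**Figure D1:**
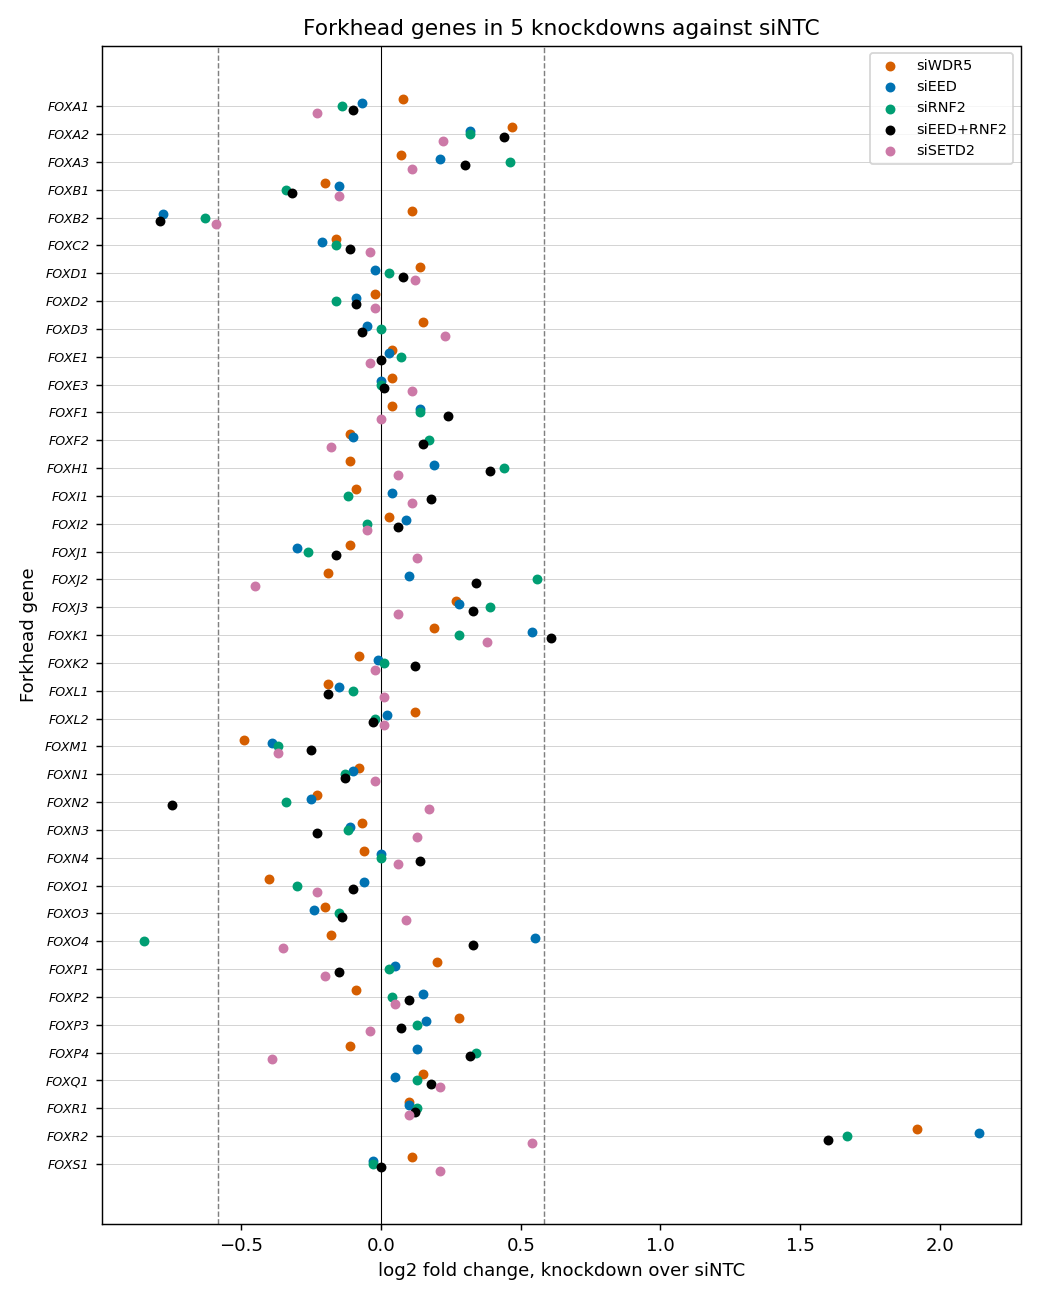
Log2 fold change of each of the 39 forkhead genes (rows) in siWDR5, siEED, siRNF2, siEED+RNF2 and siSETD2 over siNTC, 1 point per knockdown, with dashed lines at a fold change of 1.5 in either direction. FOXR2 lies at 1.60 to 2.14 in 4 knockdowns and at 0.54 in siSETD2, and FOXB2 lies at -0.79 to -0.59 in 4 knockdowns and at 0.11 in siWDR5.

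The targets WDR5, EED and SETD2 were lower in their own knockdowns, with 43.1% of the WDR5 signal left in siWDR5, 40.8% and 32.7% of EED in siEED and siEED+RNF2, and 29.7% of SETD2 in siSETD2. EED was also called lower in siRNF2, with 63.2% of its signal left (-0.66, adjusted p = 5.4e-05 from limma), and short of the fold threshold it was at 69.0% in siWDR5 and 74.6% in siSETD2. The part of the lower EED signal in the siRNF2 values was not tested. The RNF2 transcript was not analysed here, so these values do not show its knockdown. Of 12 listed pluripotency markers 9 were measured, and POU5F1 and NANOG were not among them. All 9 lay on every array above a dim level, the 95th percentile of 361 olfactory receptor genes on that array. Their mean log2 level was 11.32 to 11.39 in siWDR5, 11.23 to 11.26 in siEED and siRNF2, 11.13 to 11.16 in siEED+RNF2, 11.68 to 11.70 in siSETD2 and 11.55 in siNTC. Among them LIN28A fell in siWDR5 (-0.68), DNMT3B in siRNF2 (-0.71) and siEED+RNF2 (-0.62), and LIN28B (-0.90) and L1TD1 (-1.08) in siEED+RNF2, while L1TD1 (0.67) and DPPA4 (0.59) rose in siSETD2. Of the markers of other lineages, 4 of 8 for neuroectoderm, 4 of 8 for mesoderm, 2 of 7 for trophoblast, 2 of 8 for fibroblasts and 0 of 5 for blood lay above the dim level on all arrays. The mean level of the mesoderm list was 5.53 to 5.87 over the knockdown arrays and 5.92 to 6.03 in siNTC, and that of the neuroectoderm list was 6.45 to 6.65 and 6.71 to 6.72. Among single markers MAP2 fell in all 5 knockdowns (-1.41 to -0.66), HAND1 in siWDR5, siEED and siSETD2 (-1.94 to -0.81), KDR in siEED, siRNF2, siEED+RNF2 and siSETD2 (-1.05 to -0.97), LHX2 in siEED (-0.79) and siSETD2 (-1.08) and THY1 in siEED, siRNF2 and siEED+RNF2 (-1.67 to -1.5), while TFAP2C rose with all but siSETD2 (0.60 to 1.11). In siNTC THY1 was 10.51 and 10.58 and TFAP2C 9.21 and 9.16. By contrast, 6 of the 8 fibroblast and 4 of the 7 trophoblast markers lay above the dim level on no array. THY1 and TFAP2C are therefore not read as signs of these lineages. Over the knockdowns 2.64% to 6.37% of all genes were called higher and 2.63% to 6.02% lower. The part of the marker shifts in the forkhead values was not tested.

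FOXR2 (chromosome X) showed the widest range of log2 values over the 12 arrays among the members, 2.28. It was 6.70 and 6.76 with siWDR5, 6.97 and 6.92 with siEED, 6.40 and 6.55 with siRNF2, 6.44 and 6.37 with siEED+RNF2, 5.54 and 5.16 with siSETD2, and 4.93 and 4.68 with siNTC. All 10 knockdown arrays lay above both siNTC arrays, and the 8 arrays of the first 4 knockdowns lay above both siSETD2 arrays as well. The log2 fold change over siNTC was 1.92 (SE 0.12, adjusted p = 6.9e-07 from limma) in siWDR5, a 3.79-fold higher level. It was 2.14 (SE 0.12, adjusted p = 1.9e-07 from limma) in siEED, or 4.40-fold. In siRNF2 it was 1.67 (SE 0.12, adjusted p = 6.9e-07 from limma), or 3.19-fold, and in siEED+RNF2 1.60 (SE 0.12, adjusted p = 7.1e-07 from limma), or 3.03-fold. The siSETD2 value, 0.54 (SE 0.12, adjusted p = 0.004 from limma), was past the p threshold and short of the fold threshold, and it reached the fold threshold without siSETD2 replicate 2 (0.73) or siNTC replicate 1 (0.67). Without siNTC as the reference these calls depend on the other knockdowns: set against the average of those other knockdowns with a different target, FOXR2 was called higher in siEED (0.76) and called lower in siSETD2 (-1.29), and it was not called in siWDR5 (0.43), siRNF2 (0.14) or siEED+RNF2 (0.36).

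In siNTC the FOXR2 signal lay within the range of olfactory receptor genes, whose products are odorant receptors of the nose. Their 95th percentile ran from 5.19 to 5.35 over the arrays. FOXR2 lay above it on the 8 arrays of every knockdown except siSETD2, on siSETD2 replicate 1, and not on siSETD2 replicate 2 or on either siNTC array. Set against that percentile on the siNTC arrays (mean 5.29) in place of the measured siNTC value, FOXR2 was 2.71-fold higher with siWDR5, 3.14-fold with siEED, 2.28-fold with siRNF2, 2.16-fold with siEED+RNF2 and 1.04-fold with siSETD2.

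The mean FOXR2 level was highest with siEED, followed by siWDR5, siRNF2, siEED+RNF2, siSETD2 and siNTC, and of neighbours in this order siEED+RNF2 and siSETD2 alone differed past both thresholds. FOXR2 was higher in siEED than in siSETD2 by 1.59 on the log2 scale (95% interval 1.34 to 1.85, adjusted p = 1.5e-06 from limma), in siRNF2 than in siSETD2 by 1.13 (0.87 to 1.38) and in siEED+RNF2 than in siSETD2 by 1.05 (0.80 to 1.31). It was lower in siSETD2 than in siWDR5 by a difference of -1.38 (-1.63 to -1.12). Between siEED and siWDR5 the difference was 0.21 (-0.04 to 0.47), between siRNF2 and siWDR5 -0.25 (-0.50 to 0.01), and between siEED+RNF2 and siRNF2 -0.07 (-0.33 to 0.18). From siEED, siRNF2 differed by -0.46 (-0.72 to -0.21, adjusted p = 0.026 from limma). The dual knockdown lay below siEED by a difference of -0.54 (-0.79 to -0.28, adjusted p = 0.0094 from limma), with a fold change short of 1.5.

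The promoter of FOXR2 is shown because it holds far fewer CpG dinucleotides, the substrate of DNA methylation, than the windows found for the other members called in the knockdowns. Sequences are RefSeq windows of GRCh38.p14 from 250 bases before to 50 after the transcription start, read 5′ to 3′ on the strand of the gene, with each CpG in capitals. A window was found for 29 of the 39 members (40 windows in all, since a gene may have several starts). The FOXR2 window, chrX:55623150-55623449 on the plus strand, holds 1 CpG:
FOXR2: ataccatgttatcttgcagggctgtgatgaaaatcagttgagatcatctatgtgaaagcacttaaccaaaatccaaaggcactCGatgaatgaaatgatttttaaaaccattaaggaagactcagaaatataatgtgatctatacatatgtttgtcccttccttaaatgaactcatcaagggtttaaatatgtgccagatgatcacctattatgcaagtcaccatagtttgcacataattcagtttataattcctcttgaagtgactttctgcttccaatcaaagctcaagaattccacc
Of all 35116 windows 11.0% hold at most 1 CpG, and of the 40 forkhead windows 2 do, that of FOXR2 and 1 start of FOXP2. The median was 26.5 CpG over the forkhead windows, with a range of 1 to 55, and 14 over all windows.

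Of the 10 genes measured beside FOXR2 on chromosome X, 0 were called higher in any knockdown. Over all genes 2.64% to 6.37% were called higher per knockdown, so 0 among 10 lies near that share. Per knockdown 1 to 3 of the 10 were called lower, against 2.63% to 6.02% of all genes. The 5 genes measured on either side, in reference order, are VCF2, PAGE5, PAGE3, MAGEH1 and USP51 before it and XAGE-4, RRAGB, KLF8, UBQLN2 and UQCRBP1 after it. Their log2 fold changes ran from -0.76 to 0.31 with siWDR5, -0.77 to 0.46 with siEED, -0.91 to 0.26 with siRNF2, -0.78 to 0.47 with siEED+RNF2 and -0.60 to 0.39 with siSETD2. Short of the fold threshold, MAGEH1 was higher in every knockdown, from 0.26 in siRNF2 to 0.47 in siEED+RNF2 (adjusted p 5.0e-04 to 0.019 from limma). At an adjusted p under 0.05 from limma, VCF2, XAGE-4, RRAGB, KLF8 and UQCRBP1 were lower in some knockdowns, also short of that threshold. PAGE3 and XAGE-4 lay below the dim level on every array. UBQLN2, a proteasome shuttle factor, fell with siWDR5 (-0.75), with siEED (-0.77), with siRNF2 (-0.91) and with siEED+RNF2 (-0.78), USP51, a histone deubiquitinase, fell in siWDR5 (-0.72) and siEED+RNF2 (-0.68), and KLF8, a zinc finger factor, fell in siWDR5 (-0.76) and siSETD2 (-0.60).

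**Figure D2:**
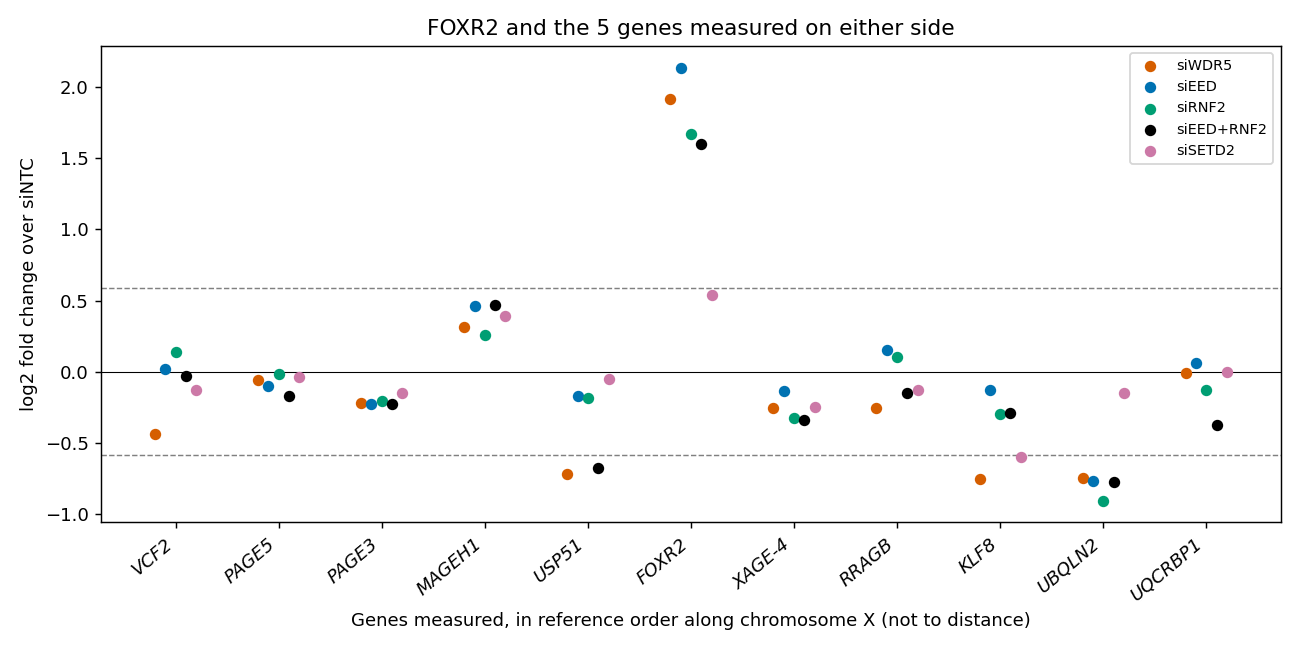
Log2 fold change over siNTC (vertical axis) of FOXR2 and the 5 genes measured on either side of it in reference order on chromosome X (horizontal axis, not to distance), 1 point per knockdown, with dashed lines at a fold change of 1.5. FOXR2 lies at 1.60 to 2.14 in every knockdown but siSETD2, and the neighbouring genes lie between -0.91 and 0.47.

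FOXR2 is known to form a complex with MYC and MAX, and 13 of 13 listed genes of the MYC and MAX network were measured. MYCL rose in all 5 knockdowns, by 0.91 with siWDR5, 1.00 with siEED, 1.22 with siRNF2, 1.22 with siEED+RNF2 and 0.62 with siSETD2. Its values were 7.47 and 7.51 with siWDR5, 7.61 and 7.54 with siEED, 7.76 and 7.83 with siRNF2, 7.87 and 7.73 with siEED+RNF2, 6.94 and 7.44 with siSETD2, and 6.46 and 6.69 with siNTC, so no knockdown array overlapped siNTC. With siNTC shared by all the comparisons, a siNTC offset cannot be told apart from this common rise. MYCN fell in siRNF2 (-0.68, adjusted p = 3.8e-06 from limma), and MYC itself was not called, with values from -0.52 in siRNF2 to -0.06 in siWDR5. No other listed gene of the network was called, where 2.64% to 6.37% of all genes were called higher and 2.63% to 6.02% lower over the knockdowns, and the median of the 13 lay between -0.16 in siSETD2 and 0.07 in siWDR5. The genes whose values followed those of FOXR2 most closely over the 12 arrays, by Pearson correlation, were ACAD10 (0.975), FHOD3 (0.972), OSBPL1A (0.960), PRORSD1P (0.959) and BOD1 (0.958). This is a description over 12 arrays that share 6 conditions.

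FOXB2, a forkhead factor expressed in the embryonic brain of the mouse, fell in 4 of the 5 knockdowns. It was 9.70 and 9.54 with siWDR5, 8.68 and 8.80 with siEED, 8.81 and 8.97 with siRNF2, 8.72 and 8.72 with siEED+RNF2, 8.90 and 8.96 with siSETD2, and 9.53 and 9.51 with siNTC. The 8 arrays of siEED, siRNF2, siEED+RNF2 and siSETD2 reached 8.97 at most, below every siWDR5 and siNTC array. The log2 fold change was -0.78 in siEED (SE 0.08, adjusted p = 1.8e-05 from limma), leaving 58.3% of the siNTC signal. It was -0.63 in siRNF2 (SE 0.08, adjusted p = 5.1e-05 from limma), -0.79 in siEED+RNF2 (SE 0.08, adjusted p = 6.9e-06 from limma) and -0.59 in siSETD2 (SE 0.08, adjusted p = 1.5e-04 from limma). In siWDR5 it was 0.11 (95% interval -0.06 to 0.28, adjusted p = 0.32 from limma). The direct differences from siWDR5 passed the test for siEED (-0.89), siRNF2 (-0.73), siEED+RNF2 (-0.90) and siSETD2 (-0.69), while no pair among these 4 differed past the threshold, the largest difference being -0.21 (-0.38 to -0.04) between siEED+RNF2 and siSETD2. The siSETD2 call sat at the fold threshold and was lost under quantile normalization (-0.58), without siSETD2 replicate 1 (-0.56) and without siNTC replicate 1 (-0.58), and the siRNF2 call was lost without siRNF2 replicate 1 (-0.54). With other knockdowns in place of siNTC as the reference, FOXB2 was not called lower in siEED (-0.41), siRNF2 (-0.21), siEED+RNF2 (-0.55) or siSETD2 (-0.06). The FOXB2 window, chr9:77019405-77019704 on the plus strand, is given for contrast with that of FOXR2 and holds 22 CpG:
FOXB2: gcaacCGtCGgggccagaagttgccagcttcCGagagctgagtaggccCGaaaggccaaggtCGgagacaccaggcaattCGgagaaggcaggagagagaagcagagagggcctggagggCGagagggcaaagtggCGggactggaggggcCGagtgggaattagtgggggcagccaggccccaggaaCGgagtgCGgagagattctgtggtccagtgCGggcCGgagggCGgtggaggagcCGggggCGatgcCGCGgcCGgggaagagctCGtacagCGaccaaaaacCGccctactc

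FOXO4, one of the FOXO factors that AKT phosphorylates and keeps out of the nucleus, was the member that differed most between siRNF2 and siEED. It was 7.57 and 7.58 with siWDR5, 8.35 and 8.26 with siEED, 6.83 and 6.98 with siRNF2, 8.06 and 8.10 with siEED+RNF2, 7.33 and 7.47 with siSETD2, and 7.69 and 7.81 with siNTC. No group overlapped another in these values. FOXO4 fell in siRNF2 by 0.85 on the log2 scale (SE 0.08, adjusted p = 4.8e-06 from limma), leaving 55.5% of the siNTC signal. In siEED the log2 fold change was 0.55 (SE 0.08, adjusted p = 1.9e-04 from limma), a 1.46-fold higher level that was past the p threshold and short of the fold threshold, and without siNTC replicate 2 it was called at 0.61. In siEED+RNF2 it was 0.33 (adjusted p = 0.0044), in siWDR5 -0.18 (adjusted p = 0.091) and in siSETD2 -0.35 (adjusted p = 0.004), all from limma and none called.

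In the direct comparison FOXO4 was lower in siRNF2 than in siEED by a difference of -1.4 (95% interval -1.57 to -1.23, adjusted p = 1.4e-06 from limma). In the dual knockdown the level was higher than in siRNF2 by 1.18 (1.01 to 1.34, adjusted p = 5.4e-06 from limma) and differed from siEED by -0.22 (-0.39 to -0.06, adjusted p = 0.077 from limma). FOXO4 was also higher in siEED than in siSETD2 (0.91) and siWDR5 (0.73), higher in siEED+RNF2 than in siSETD2 (0.68) and lower in siRNF2 than in siWDR5 (-0.67). The FOXO4 window, chrX:71095601-71095900 on the plus strand, holds 25 CpG and is shown because it is 1 of 2 forkhead windows, with a start of FOXP1, that contain the forkhead element GTAAACA on either strand (starting at base 274 of the window, in lower case here). The element occurs in 3.42% of all windows, and no other motif was searched:
FOXO4: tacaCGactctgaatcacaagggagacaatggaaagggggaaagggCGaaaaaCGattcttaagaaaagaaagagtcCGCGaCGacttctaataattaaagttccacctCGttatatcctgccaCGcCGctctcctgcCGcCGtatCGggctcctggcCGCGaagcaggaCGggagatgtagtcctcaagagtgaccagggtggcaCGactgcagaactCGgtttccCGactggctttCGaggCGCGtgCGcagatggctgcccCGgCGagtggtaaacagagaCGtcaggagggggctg

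**Figure D3:**
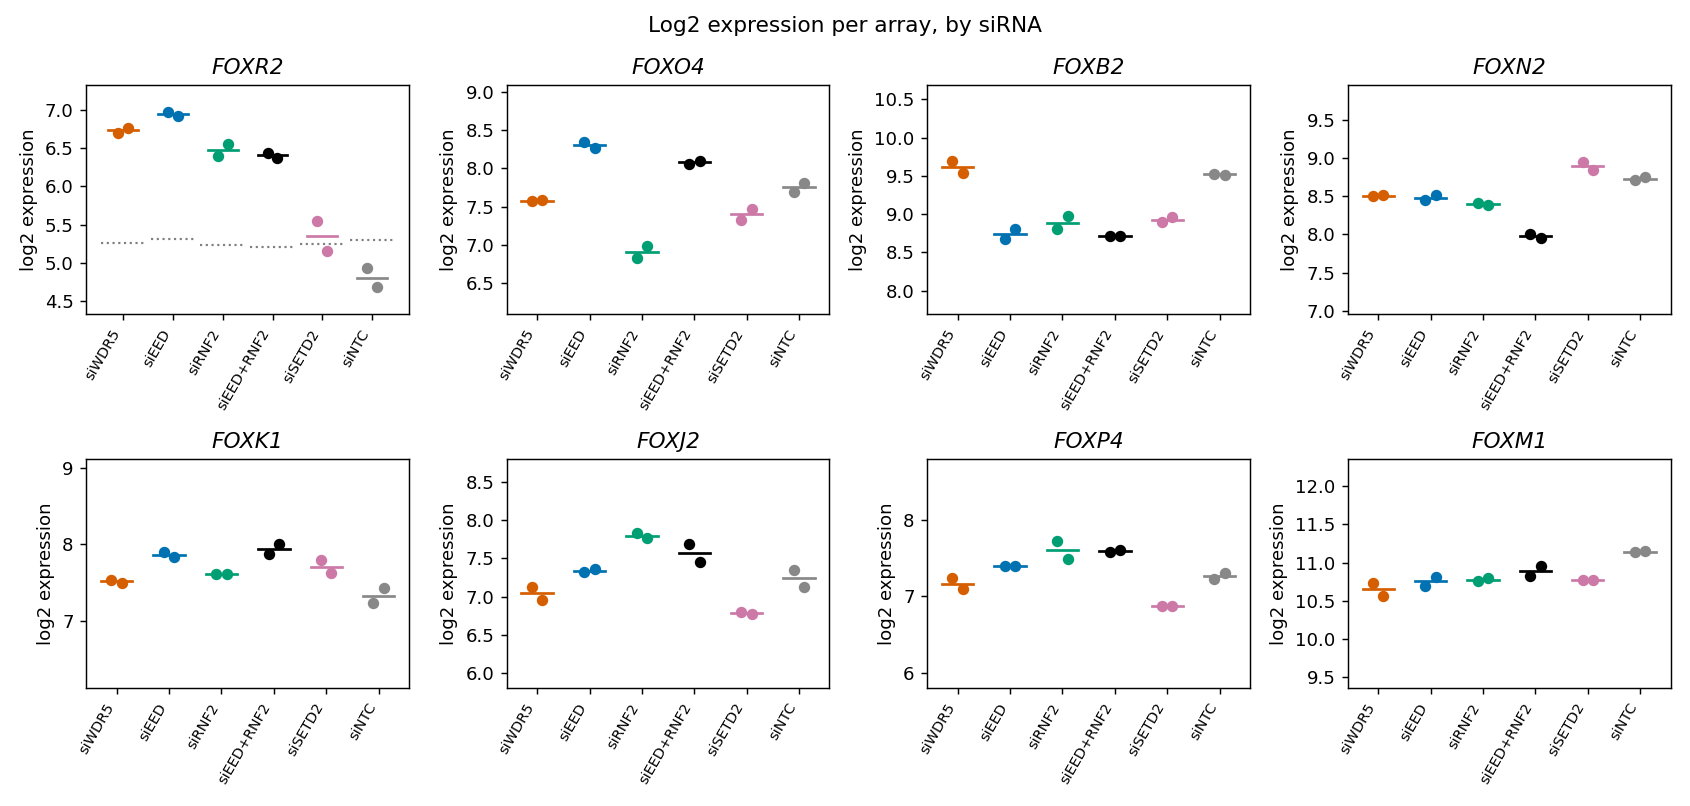
Log2 expression (vertical axes, each spanning the same number of log2 units) of FOXR2, FOXO4, FOXB2, FOXN2, FOXK1, FOXJ2, FOXP4 and FOXM1 on each array, by siRNA (horizontal axes). Points are arrays, bars are means of 2 arrays, and dotted lines in the FOXR2 panel are the 95th percentile of olfactory receptor genes, which both siNTC arrays of FOXR2 (4.93 and 4.68) lie below.

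The other measured FOXO genes were not called in any knockdown. FOXO1, which in human embryonic stem cells is known to sustain pluripotency genes, was 8.61 and 8.50 with siWDR5, 8.60 and 8.71 with siRNF2 and 9.00 and 8.92 with siNTC. Its log2 fold change was -0.40 in siWDR5 (adjusted p = 0.0018) and -0.30 in siRNF2 (adjusted p = 0.0073), both from limma and short of the fold threshold, and -0.06 with siEED, -0.10 with siEED+RNF2 and -0.23 with siSETD2. FOXO3 lay between 4.92 and 5.55 over the arrays, near the dim level, with values from -0.24 in siEED to 0.09 in siSETD2.

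Of 26 measured FOXO target genes, 2 rose with siWDR5, 4 with siEED, 3 with siRNF2, 2 with siEED+RNF2 and 1 with siSETD2, and 1, 0, 0, 1 and 4 fell. Over all genes 2.8%, 3.74%, 6.37%, 5.49% and 2.64% were called higher in that order, and 3.22%, 2.63%, 3.81%, 6.02% and 3.18% lower. The median of the list lay between -0.04 in siRNF2 and 0.05 in siEED+RNF2. TXNIP, an inhibitor of thioredoxin that is also induced by glucose, rose in every knockdown, to 11.47 and 11.44 with siWDR5, 10.95 and 10.94 with siEED, 11.40 and 11.43 with siRNF2, 11.21 and 11.25 with siEED+RNF2 and 9.84 and 9.88 with siSETD2, against 8.83 and 8.93 with siNTC. Its log2 fold changes were 2.58, 2.06, 2.53, 2.35 and 0.98 in that order. They share the siNTC arrays, so the part common to them cannot be told apart from a siNTC offset. The zinc finger factor gene KLF6 rose by 0.76 with siWDR5, by 0.62 with siEED, by 0.76 with siRNF2 and by 0.66 with siEED+RNF2, and ERBB3, a growth factor receptor, was called higher in siRNF2, at 6.0 and 5.71 with siRNF2 against 5.12 and 5.30 with siNTC, where it lay below the dim level on both arrays. SESN3, which restrains mTORC1, rose in siEED (0.97) and fell in siSETD2 (-0.99), and BCL6, a transcriptional repressor, rose in siEED (0.80) and was called lower in siSETD2, at 5.09 and 5.13 with siSETD2, below the dim level on both arrays, against 6.03 and 5.82 with siNTC. CDKN1B, the cell cycle inhibitor p27, fell in siWDR5 (-0.67) and siSETD2 (-1.05), CITED2 fell in siSETD2 (-0.68), and RICTOR, an mTORC2 subunit, fell in siEED+RNF2 (-0.68). The part of FOXO4 in these values was not tested.

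Of 10 measured genes of the PI3K and AKT pathway upstream of the FOXO factors, TRIB3, which binds AKT and is a stress response gene, rose by 1.33 with siWDR5, by 2.27 with siEED, by 2.96 with siRNF2 and by 2.60 with siEED+RNF2. PIK3R1, the regulatory subunit of PI3K, fell in siRNF2 (-0.65), siEED+RNF2 (-0.99) and siSETD2 (-0.65), and the AKT-related kinase gene SGK1 fell in siSETD2 (-0.66). No other gene of this list was called, and its median lay between -0.21 in siRNF2 and 0.01 in siWDR5. Per knockdown 0 to 1 of the 10 were called higher and 0 to 2 lower. Over all genes 2.64% to 6.37% were called higher and 2.63% to 6.02% lower, so these calls are not read as a change of the pathway.

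FOXK1, a factor that represses autophagy genes and promotes glycolysis, was 7.54 and 7.50 with siWDR5, 7.90 and 7.83 with siEED, 7.61 and 7.61 with siRNF2, 7.87 and 8.01 with siEED+RNF2, 7.79 and 7.63 with siSETD2, and 7.23 and 7.43 with siNTC. All 10 knockdown arrays lay above both siNTC arrays. It rose in siEED+RNF2 by 0.61 (SE 0.08, adjusted p = 9.8e-05 from limma) and was 0.54 in siEED (adjusted p = 4.1e-04 from limma), short of the fold threshold. The siEED+RNF2 call was lost under quantile normalization (0.56), centring of the arrays (0.53), other knockdowns as reference (0.32), without siEED+RNF2 replicate 2 (0.54) and without siNTC replicate 1 (0.51), and without siNTC replicate 2 FOXK1 was also called in siEED (0.64). No direct comparison between knockdowns called FOXK1. Its window, chr7:4682045-4682344 on the plus strand, holds 55 CpG, the upper end of the forkhead range, and is shown as the other extreme to that of FOXR2:
FOXK1: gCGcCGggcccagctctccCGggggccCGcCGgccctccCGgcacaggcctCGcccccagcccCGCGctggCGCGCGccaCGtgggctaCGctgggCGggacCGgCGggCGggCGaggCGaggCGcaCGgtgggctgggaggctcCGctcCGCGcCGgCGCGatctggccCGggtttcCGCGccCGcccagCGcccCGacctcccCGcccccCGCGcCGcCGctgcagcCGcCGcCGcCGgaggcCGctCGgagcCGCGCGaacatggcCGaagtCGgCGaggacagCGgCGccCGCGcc
The related FOXK2, whose window also holds 55 CpG, lay between -0.08 in siWDR5 and 0.12 in siEED+RNF2 and was not called. Of 9 measured partners of the FOXK proteins, HCFC1, a subunit of chromatin complexes, fell in siEED (-0.64), siRNF2 (-1.14) and siEED+RNF2 (-0.62), and the histone demethylase gene KDM1B rose in siSETD2 (0.74). The median of these partners lay between -0.26 in siRNF2 and -0.14 in siWDR5, with -0.04 and -0.03 over all genes. At most 1 of the 9 was called per knockdown and direction, where 2.64% to 6.37% of all genes were called higher and 2.63% to 6.02% lower.

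FOXN2 fell in the dual knockdown and was called in none of the other 4. It was 8.50 and 8.51 with siWDR5, 8.45 and 8.51 with siEED, 8.41 and 8.38 with siRNF2, 8.01 and 7.96 with siEED+RNF2, 8.95 and 8.84 with siSETD2, and 8.71 and 8.75 with siNTC. The siEED+RNF2 arrays, whose transfection also used more siRNA and reagent, lay below all others. The log2 fold change over siNTC was -0.75 in siEED+RNF2 (SE 0.06, adjusted p = 1.9e-06 from limma), beside -0.25 in siEED and -0.34 in siRNF2. Directly, siEED+RNF2 lay below siEED by a difference of -0.50 (95% interval -0.63 to -0.36, adjusted p = 1.8e-04) and below siRNF2 by -0.41 (-0.55 to -0.28, adjusted p = 6.6e-04), both from limma and short of the fold threshold, and below siSETD2 by -0.91 (-1.05 to -0.78, adjusted p = 4.2e-07 from limma). The interaction term, which asks whether the dual value departs from the sum of the single values, was -0.16 (-0.35 to 0.03) and did not pass the test.

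FOXJ2, a transcriptional activator, and FOXP4, a FOXP factor of foregut and lung development that dimerizes through a leucine zipper, were not called against siNTC and differed between knockdowns. FOXJ2 was 7.13 and 6.96 with siWDR5, 7.32 and 7.36 with siEED, 7.83 and 7.77 with siRNF2, 7.69 and 7.46 with siEED+RNF2, 6.80 and 6.78 with siSETD2, and 7.35 and 7.13 with siNTC. Its siSETD2 arrays were below all others, and its siRNF2 arrays above all others. It was higher in siRNF2 than in siSETD2 by 1.01 (95% interval 0.81 to 1.22, adjusted p = 7.0e-06) and than in siWDR5 by 0.75 (0.54 to 0.96, adjusted p = 1.1e-04), and higher in siEED+RNF2 than in siSETD2 by 0.79 (0.58 to 1.00, adjusted p = 3.8e-05), all from limma. Against siNTC it was 0.56 in siRNF2 (adjusted p = 5.3e-04 from limma), short of the fold threshold, and -0.45 in siSETD2. FOXP4 was 7.24 and 7.09 with siWDR5, 7.40 and 7.40 with siEED, 7.72 and 7.49 with siRNF2, 7.58 and 7.61 with siEED+RNF2, 6.88 and 6.88 with siSETD2, and 7.23 and 7.30 with siNTC. As for FOXJ2, the siSETD2 arrays were the lowest, and FOXP4 exceeded its siSETD2 level by 0.73 with siRNF2 and by 0.71 with siEED+RNF2.

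The 10 direct comparisons held 20 calls on 6 members, FOXO4 (6), FOXB2 (4), FOXR2 (4), FOXJ2 (3), FOXP4 (2) and FOXN2 (1). In the dual knockdown against the others, 1 member was called against siRNF2 (3.27% of all genes), 0 against siEED (2.91%), 5 against siSETD2 (10.4%) and 1 against siWDR5 (7.02%). For siEED+RNF2 against siEED, where limma called none, 6 members had an unadjusted p under 0.05, 2 higher and 4 lower. The share of all genes at that p is not given here, so this count is not read as a result. In siRNF2, 1 member was called against siEED (1.26%), 3 against siSETD2 (8.67%) and 3 against siWDR5 (5.93%). In siEED, 2 were called against siSETD2 (6.28%) and 2 against siWDR5 (3.33%), and siSETD2 against siWDR5 gave 2 (5.84%). These shares count genes called in either direction, and the counts of members lie near them.

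**Figure D4:**
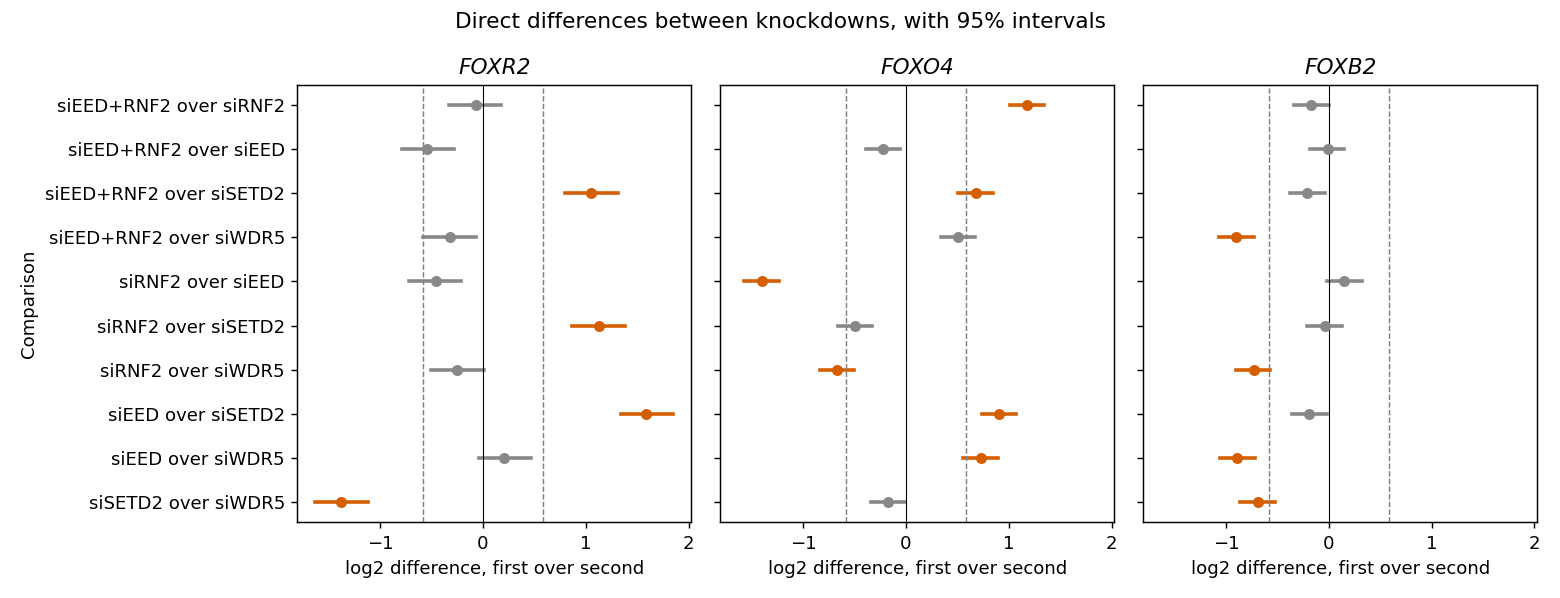
Log2 difference between knockdowns (horizontal axis, first named over second) of FOXR2, FOXO4 and FOXB2 in the 10 direct comparisons (vertical axis), with 95% intervals from limma and dashed lines at a fold change of 1.5. Orange marks called differences, which run from -1.4 for FOXO4 in siRNF2 over siEED to 1.59 for FOXR2 in siEED over siSETD2.

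In siEED+RNF2 the value of 3 members was called as departing from the sum of the single knockdowns (the dual value over siNTC minus both single values over siNTC), against 11.3% of all genes. The term was -2.21 for FOXR2 (95% interval -2.57 to -1.85, adjusted p = 4.2e-06 from limma), whose dual value of 1.60 is set against single values of 2.14 and 1.67. As FOXR2 lay below the dim level on both siNTC arrays, the size of its term is not settled, and with siNTC set to that level it is -1.73, with no test. It was 0.61 for FOXB2 (0.37 to 0.85, adjusted p = 0.0014 from limma), with a dual value of -0.79 beside single values of -0.78 and -0.63, and 0.63 for FOXO4 (0.39 to 0.86, adjusted p = 0.0011 from limma), with 0.33 beside 0.55 and -0.85. The siNTC mean enters this term with its full size, so that a level of siNTC that differs alike from all knockdowns cannot be told apart from a departure from additivity. The same holds for an effect of the larger siRNA and reagent dose in the dual transfection.

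FOXM1, the activator of genes for mitosis, was 10.74 and 10.57 with siWDR5, 10.70 and 10.81 with siEED, 10.76 and 10.80 with siRNF2, 10.83 and 10.96 with siEED+RNF2, 10.78 and 10.77 with siSETD2, and 11.14 and 11.15 with siNTC. All 10 knockdown arrays lay below both siNTC arrays. All the comparisons share those arrays, so a siNTC offset cannot be told apart from a fall common to the knockdowns. The log2 fold changes were -0.49 with siWDR5 (adjusted p = 3.7e-04), -0.39 with siEED (0.0018), -0.37 with siRNF2 (0.002), -0.25 with siEED+RNF2 (0.017) and -0.37 with siSETD2 (0.0027), all from limma, past the p threshold and short of the fold threshold.

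Of 19 measured FOXM1 target genes of the G2 and M phases, 1 fell with siWDR5, 1 with siEED, 4 with siRNF2, 6 with siEED+RNF2 and 1 with siSETD2, and none was called higher. Over all genes 3.22%, 2.63%, 3.81%, 6.02% and 3.18% were called lower in that order. The median of the list lay between -0.17 in siEED and -0.09 in siSETD2. CENPF, a kinetochore protein, was 9.51 and 9.38 with siEED+RNF2 and 10.07 and 10.01 with siRNF2, against 10.89 and 10.91 with siNTC, log2 fold changes of -1.45 and -0.86. ECT2, needed for cytokinesis, fell in siEED+RNF2 (-1.23), as did TOP2A, the mitotic topoisomerase (-0.92). KIF20A, a kinesin of the dividing cell, fell in siEED (-0.72), siRNF2 (-1.18) and siEED+RNF2 (-0.64), BUB1B of the spindle checkpoint fell in siRNF2 (-0.64) and siEED+RNF2 (-0.60), and SKP2, a ubiquitin ligase subunit, fell in siRNF2 (-0.61) and siEED+RNF2 (-0.59). CDC25B, a phosphatase that activates CDK1, fell in siWDR5 (-0.71) and siSETD2 (-0.61). The part of FOXM1 in these values was not tested.

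FOXA1 and FOXA2 gave signals near the dim level. FOXA2, a pioneer factor of the endoderm, was 5.45 and 5.73 with siWDR5, 5.48 and 5.38 with siEED, 5.39 and 5.47 with siRNF2, 5.47 and 5.64 with siEED+RNF2, 5.29 and 5.38 with siSETD2, and 5.09 and 5.13 with siNTC, with all knockdown arrays above siNTC. Both siNTC arrays lay below the dim level, so the size of a difference from siNTC is not settled. Its log2 fold change was largest in siWDR5 at 0.47 (adjusted p = 0.0021 from limma), short of the fold threshold, and it was called there without siWDR5 replicate 1 (0.62). FOXA1 lay above the dim level on no array, between 4.81 and 5.31, with values from -0.23 in siSETD2 to 0.08 in siWDR5. Of 13 measured endoderm genes associated with FOXA factors, only the chemokine receptor gene CXCR4 was called, lower with siWDR5 (-0.62), with siEED (-0.77), with siRNF2 and with siEED+RNF2 (-0.74), and 8 of the 13 lay above the dim level on no array. CXCR4 was 4.92 and 5.14 with siRNF2, below the dim level on both arrays, against 5.99 and 6.08 with siNTC. The median of that list lay between -0.06 in siEED and 0.04 in siSETD2, with -0.03 and -0.01 over all genes. The single gene called of the 13 is set against 2.63% to 6.02% of all genes called lower over the knockdowns.

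FOXH1, the SMAD partner in NODAL signalling, was 5.24 and 5.18 with siWDR5, 5.48 and 5.53 with siEED, 5.66 and 5.87 with siRNF2, 5.72 and 5.70 with siEED+RNF2, 5.48 and 5.28 with siSETD2, and 5.10 and 5.54 with siNTC. The siNTC arrays were 0.44 apart, and only siRNF2 and siEED+RNF2 lay wholly above them. The values of 0.44 in siRNF2 (adjusted p = 0.013) and 0.39 in siEED+RNF2 (adjusted p = 0.025), both from limma, were short of the fold threshold. Of 14 measured genes of the NODAL pathway, LEFTY2, a secreted NODAL antagonist, rose in siEED (1.07) and siEED+RNF2 (0.86), GDF3, a NODAL-related ligand, fell in siRNF2 (-0.59), and SMAD3 fell in siSETD2 (-0.85). The median of that list lay between -0.09 in siWDR5 and -0.03 in siSETD2. At most 1 of the 14 was called per knockdown and direction, where 2.64% to 6.37% of all genes were called higher and 2.63% to 6.02% lower. FOXD3, which sustains mouse embryonic stem cells and marks the neural crest, lay between 4.82 and 5.36, above the dim level on 1 array, with values from -0.07 in siEED+RNF2 to 0.23 in siSETD2.

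Across the family, 26 members had a mean over the 12 arrays above the corresponding 95th percentile of the olfactory receptor genes (5.22) and 13 did not. On single arrays, 21 lay above the percentile on all 12 arrays, 9 on none and 9 on some. The range over the arrays was under 0.5 for 20 members, with a median of 0.48 for the family and 0.50 for all genes. Counting every fold size, limma gave an adjusted p under 0.05 for 5 members higher and 4 lower with siWDR5, 5 and 5 with siEED, 8 and 7 with siRNF2, 10 and 6 with siEED+RNF2, and 2 and 7 with siSETD2. Over all genes the shares at any fold were 15.2% higher and 18.6% lower with siWDR5, 16.5% and 18.9% with siEED, 20.9% and 22.1% with siRNF2, 20.6% and 21.5% with siEED+RNF2, and 15.8% and 15.8% with siSETD2. FOXJ3, chosen after its values were seen, was among these in 4 knockdowns, at 0.27 with siWDR5, 0.28 with siEED, 0.39 with siRNF2 and 0.33 with siEED+RNF2 (adjusted p between 3.3e-04 and 0.005 from limma) and 0.06 in siSETD2.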

How the data were processed

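Expression was measured on 12 arrays, 2 per siRNA, grouped by the submitters' labels. The authors deposited log2 values for 33297 transcript clusters, made with GCRMA and Partek according to the submitters' processing notes (versions and settings: not given in the sources used here). Background and array normalization were thus already applied, which sets the arrays to a similar overall level, with medians over all clusters of 6.29 to 6.36. Over the genes tested the array medians still differed, with those of siRNF2 0.128 above siNTC. Every value column was used, and no filter on dim genes was applied. Clusters were named through the platform annotation, updated by gene number, and the brightest stood for a gene, which left 18417 genes, and every forkhead gene had a single cluster. limma 3.58.1 in R 4.3.3 fitted a mean per condition to all 12 arrays (6 residual degrees of freedom) with empirical Bayes moderation, tested on simulated data. With 2 arrays per group, precision is limited by their number.

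The members and gene lists were chosen with earlier results of these data known. Named were members called in any comparison or at a fold of 1.4 to 1.5, members of known role in such cells, up to 4 called genes per list and comparison, 5 genes on either side of FOXR2 and its 5 closest correlates. Alternatives comprised other normalizations, fits, thresholds, filters and references, the replicate number as a block, and leaving out each array. Plots used matplotlib 3.10.9 (Python 3.11.15).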

Additional observations from a re-analysis of the deposited data

Results flagged for a closer look

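For 3 of the 39 members limma's interaction term over all 12 arrays was called, which sets the dual knockdown against the sum of the single ones, and it was called for 11.3% of all genes. A siNTC level that differs alike from all knockdowns, or the larger siRNA and reagent dose of the dual transfection, cannot be told apart from such a departure. FOXR2 gave -2.21 (adjusted p = 4.2e-06), a value that rests on siNTC arrays below the dim level and is -1.73 with siNTC set to that level, with no test. FOXB2 gave 0.61 (adjusted p = 0.0014) and was no longer called without siEED replicate 1 (0.55) or siRNF2 replicate 1 (0.53). FOXO4 gave 0.63 (adjusted p = 0.0011) and was no longer called without siEED replicate 2 (0.58), siRNF2 replicate 1 (0.55) or siNTC replicate 2 (0.57).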

How the results depend on the processing

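Of 386 values under the alternatives, which cover the 34 called values of single members and FOXR2 in siSETD2 and so show few gains, 362 kept their direction and side of the threshold, 21 lost the call, 2 gained it and 1 reversed: FOXR2 in siSETD2, at 0.54 over siNTC and -1.29 (adjusted p = 7.3e-07 from limma) with the other knockdowns as reference. That reference kept 3 of 12 values on their side of the threshold and gave 2 members called in siSETD2; the cause was not tested. Without a fold threshold, the members called were 9 with siWDR5, 10 with siEED, 15 with siRNF2, 16 with siEED+RNF2, 9 with siSETD2 and 7 in the interaction. The direct comparisons then held 74 calls, with a member counted once in each comparison that called it. No share of all genes at any fold is given here for the direct comparisons or the interaction, so the 74 and the 7 are not read as results. At a fold of at least 2 the members called were 1 in siEED, 1 in siRNF2, 1 in siEED+RNF2, 0 in siSETD2 (9 at any fold, 13 at an unadjusted p under 0.05, with no share of all genes given for that p) and 1 in the interaction. The direct comparisons held 7 calls at that fold, and quantile normalization left 0 members in siSETD2. Leaving out each array gave 1 to 2 members with siWDR5, 2 to 4 with siEED, 2 to 4 with siRNF2, 3 to 5 with siEED+RNF2, 0 to 2 with siSETD2 and 1 to 3 in the interaction. The direct comparisons then held 20 to 21 calls. Counts moved by over 1.5 times without siWDR5 replicate 1 (2 with siWDR5), siNTC replicate 2 (4 with siEED), siSETD2 replicate 1 (0 with siSETD2), siSETD2 replicate 2 (2 with siSETD2) and siRNF2 replicate 1 (1 in the interaction). The siRNF2 array medians lay 0.128 above siNTC, so centring lowers its values by that much. Replicate numbers did not pair the arrays (15 correlations of deviations, -0.11 to 0.16), and with the replicate block 1, 2, 3, 4 and 1 members were called in the order above, as without it. Leaving out the 30% dimmest genes kept 25 members and all 35 values on their side.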
